A study of Mus musculus with 16 samples.

Results

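The 9 genes described here, Myh11, Tagln, Cnn1, Cnn2, Smtn, Mylk, Myl9, Cald1 and Flna, encode filament, regulatory and crosslinking proteins of smooth muscle. They were chosen by symbol from the 54108 named genes of a count table, and all 9 were among the 16051 genes abundant enough to test. The table holds polyadenylated RNA of heart ventricles from 8-week-old mice, with 4 libraries per genotype and 20190334 to 24540433 counts per library. Control mice carried floxed Rbpms alleles (Rbpms fl/fl) and no Cre. Cardiac knockout (cKO) mice carried the same floxed alleles and Myh6-Cre, whose promoter is active in heart muscle cells. Each genotype had 3 male libraries and 1 female library, replicate 3 in both. The controls lack the transgene, so effects of Cre and of Rbpms loss cannot be told apart. Libraries of newborn ventricles, also in the series, were not analysed here. The labels name no pooling, litter or separate animals, so a p-value speaks only of the variation among the 8 libraries, which may be technical.

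Smooth muscle contracts when calcium and calmodulin activate myosin light chain kinase, which phosphorylates the regulatory light chain and lets myosin pull on actin. Calponin, caldesmon, transgelin and smoothelin bind the actin filaments, and filamin crosslinks them. In the ventricle, contractile smooth muscle cells lie in the walls of coronary vessels, while calponin-2, caldesmon, filamin A and smoothelin have wider expression. Rbpms encodes an RNA-binding protein that regulates splicing in muscle cells, including smooth muscle. Myh6-Cre is aimed at heart muscle cells, and whether smooth muscle cells lost Rbpms was not measured. In whole ventricle, fewer cells of a type and less RNA per cell cannot be told apart, and counts per gene merge the smooth muscle and non-muscle isoforms of a gene.

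Rbpms, the targeted gene, measured 190.5, 153.5, 193.2 and 101.6 CPM (reads relative to library size, scaled by TMM factors) in control replicates 1 to 4 and 38.8, 34.5, 27.1 and 26.9 CPM in cKO replicates 1 to 4. The ranges did not overlap, and no library went against its label. Genes were called with edgeR's quasi-likelihood test where the p adjusted over all tested genes was below 0.05.

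Of the 9 genes, 1 rose in cKO ventricles (Cald1), 2 fell (Smtn and Cnn2) and 6 did not pass, while 19.3% of all tested genes were called (9.64% higher, 9.64% lower). The largest called change was in Smtn, which was 1.73-fold lower in cKO ventricles. The median log2 fold change of the 9 was 0.08, against 0.01 over all tested genes, and it was 0.24 without cKO replicate 3, 0.19 without cKO replicate 2, 0.12 without control replicate 1, -0.02 without cKO replicate 1 and -0.01 without cKO replicate 4. Both genotypes were separate in CPM for 3 of the 9, against 23.5% of all tested genes. The summed level of the 9 genes was 750.6 to 955.5 CPM in controls and 695.5 to 994.4 CPM in cKO libraries, so the sums overlapped. Abundant genes weigh most in this sum (control means of 345 CPM for Flna and 1.71 for Tagln). A fall in Smtn and a rise in Cald1 also offset each other in it. The count depended on cKO replicate 3, the female knockout library: without it 3 rose (Cnn1, Myh11 and Cald1) and 1 fell (Smtn).

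**Figure D1:**
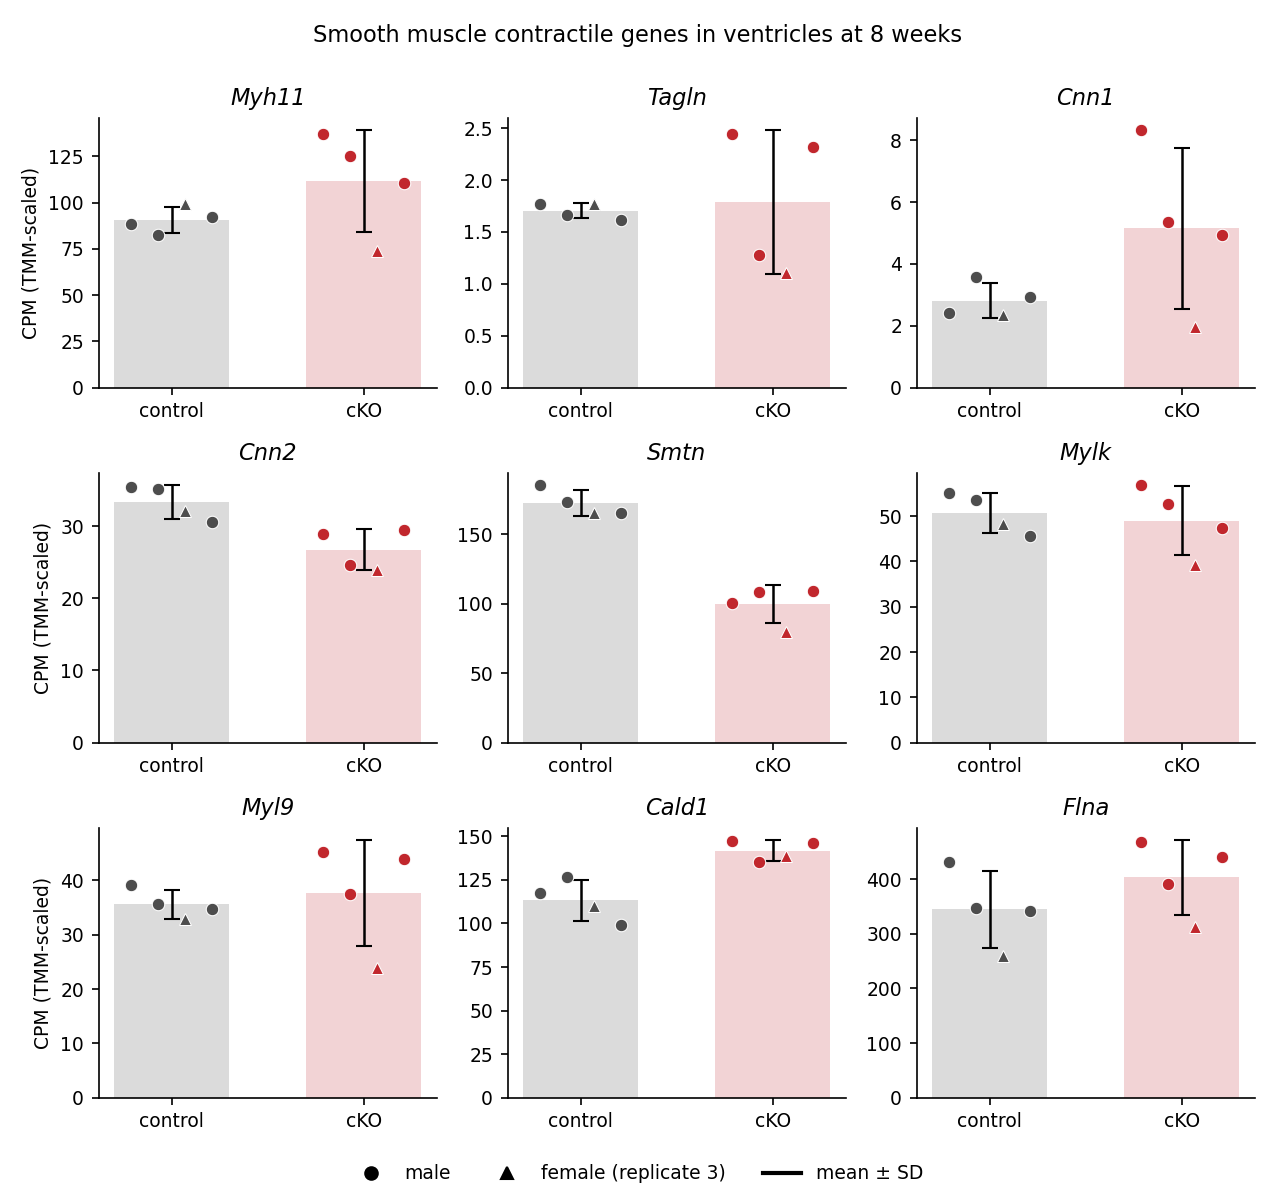
Level of each gene in every library (vertical axes, CPM scaled by TMM factors, starting at 0), with bars for the mean and error bars for the SD of 4 libraries per genotype; triangles are the female libraries. Smtn and Cnn2 were lower in all 4 cKO libraries than in any control, Cald1 was higher in all 4, and the other genes overlapped.

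Myh11 encodes the smooth muscle myosin heavy chain, the motor of the thick filament and a defining marker of smooth muscle cells (GRCm38 chromosome 16, 14194535 to 14291372). It measured 88.4, 82.5, 99.0 and 92.4 CPM in control replicates 1 to 4 and 137, 125, 73.8 and 110.3 CPM in cKO replicates 1 to 4. The male cKO libraries all lay above every control, and the female cKO library lay below every control. The means were 90.6 ± 6.93 and 112 ± 27.5 CPM (SD, n = 4). The log2 fold change of 0.30 ± 0.16 (SE) did not pass (95% interval -0.04 to 0.64, adjusted p = 0.213). Without cKO replicate 3 it was 0.45 and passed (adjusted p = 0.0092), and over 20 alternatives the adjusted p ran from 0.00596 to 0.502. That library held the lowest Myh11 value, so leaving it out raises the fold change and is not independent support for a rise.

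Myl9 encodes the regulatory light chain that binds this myosin and receives the phosphate (chromosome 2, 156775420 to 156781658). Its control values were 39.2, 35.7, 32.9 and 34.6 CPM and its cKO values 45.2, 37.5, 23.9 and 43.9 CPM. The female cKO library was again the lowest of all 8, and cKO replicates 1 and 4 were the highest. Its log2 fold change was 0.08 ± 0.17 and did not pass (95% interval -0.28 to 0.44, adjusted p = 0.8).

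Mylk encodes the kinase that phosphorylates the light chain (chromosome 16, 34745210 to 35002420). It measured 55.1, 53.6, 48.4 and 45.6 CPM in controls and 56.8, 52.6, 39.3 and 47.4 CPM in cKO libraries. The female cKO library was the lowest and cKO replicate 1 the highest of all 8, and the other cKO libraries lay within the control range. The log2 fold change was -0.05 ± 0.11 (95% interval -0.29 to 0.20, adjusted p = 0.818). Its sign turned with total counts as the only scaling (0.03), without cKO replicate 3 (0.04) and in males alone (0.02), where it did not pass either.

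Smtn encodes smoothelin, an actin-associated protein of contractile muscle cells (chromosome 11, 3517523 to 3540612). Control replicates 1 to 4 held 185.3, 173, 165.5 and 165.7 CPM, and cKO replicates 1 to 4 held 100.6, 108.4, 80.0 and 109.3 CPM. Every cKO library was well below every control, and the female cKO library was the lowest. Smtn fell from 172 ± 9.32 to 99.6 ± 13.6 CPM, with a log2 fold change of -0.79 ± 0.10 (95% interval -1.01 to -0.57, adjusted p = 0.000332). It passed in all 20 alternatives, with log2 fold changes from -0.84 to -0.70. Of its merged exon length 16.3% is also exon of the noncoding gene Gm11946 on the other strand, which had 0.277 to 1.45 CPM.

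Cnn1 and Cnn2 encode calponins, which bind actin and slow the myosin motor; Cnn1 is the smooth muscle form and Cnn2 is also found in non-muscle cells. Cnn1 (chromosome 9, 22099216 to 22109630) was scarce, with 2.40, 3.58, 2.36 and 2.93 CPM in controls and 8.32, 5.36, 1.98 and 4.94 CPM in cKO libraries. These levels rest on 50 to 201 reads. All male cKO libraries exceeded every control, and the female cKO library was below all of them. The log2 fold change of Cnn1 was 0.87 ± 0.35 and did not pass (95% interval 0.11 to 1.63, adjusted p = 0.105). Without cKO replicate 3 it was 1.14 (adjusted p = 0.00813), and Cnn1 also passed in males alone (0.0134), with DESeq2 (0.0495) and with no filter on low counts (0.0152), with a range over 20 alternatives of 0.00813 to 0.328. The fits without cKO replicate 3 and in males alone both leave out the lowest Cnn1 value, which raises the fold change.

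Cnn2 (chromosome 10, 79988584 to 79996062) measured 35.4, 35.1, 32.1 and 30.6 CPM in controls and 28.9, 24.7, 23.9 and 29.5 CPM in cKO libraries. The genotypes were separate, by a narrow gap between control replicate 4 and cKO replicate 4. Cnn2 fell 1.25-fold, with a log2 fold change of -0.32 ± 0.10 (95% interval -0.52 to -0.11, adjusted p = 0.0365). Its adjusted p was above 0.05 with control replicate 1 (0.08) or 2 (0.0832) or cKO replicate 2 (0.0996) or 3 (0.101) left out, in males alone (0.108), with upper-quartile factors (0.0569) and with total counts only (0.17), over a range of 0.0172 to 0.17.

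Cald1 encodes caldesmon, which binds actin, tropomyosin and myosin and inhibits the motor (chromosome 6, 34598500 to 34775473). It measured 117.5, 126.6, 109.8 and 98.9 CPM in controls and 147, 135.1, 139 and 146 CPM in cKO libraries. All 4 cKO libraries were above all controls, and here the female cKO library lay among the males. Cald1 rose 1.25-fold from 113 ± 11.8 to 142 ± 5.83 CPM, with a log2 fold change of 0.33 ± 0.08 (95% interval 0.14 to 0.51, adjusted p = 0.0189). With cKO replicate 1 left out the adjusted p was 0.0602, and in males alone 0.0506, over a range of 0.00256 to 0.0602.

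Tagln encodes transgelin (SM22), an actin-bundling protein used as an early smooth muscle marker (chromosome 9, 45929619 to 45936058). Only 28 to 59 reads per library were assigned to it. It measured 1.77, 1.67, 1.77 and 1.62 CPM in controls and 2.44, 1.28, 1.11 and 2.32 CPM in cKO libraries. Controls were alike, while cKO replicates 1 and 4 lay above and cKO replicates 2 and 3 below all of them. The log2 fold change was 0.07 ± 0.29 and did not pass (95% interval -0.57 to 0.70, adjusted p = 0.908), and without cKO replicate 1 it was -0.13. Of its merged exon length 67.9% is also exon of genes on the other strand in GENCODE M21, 62.4% of Gm48529 and 5.43% of Pcsk7. Whether the reads were counted by strand is not given in the sources used here, so reads of Tagln and of its antisense neighbours may not have been told apart, and its level is uncertain. Gm48529 itself had 0.547 to 1.62 CPM.

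Flna encodes filamin A, which crosslinks actin filaments and ties them to the membrane (chromosome X, 74223461 to 74249820). It measured 430.4, 348, 259 and 342 CPM in controls and 468, 391.5, 313 and 439.8 CPM in cKO libraries. The genotypes overlapped, and the female library was the lowest of its genotype in both. The log2 fold change was 0.22 ± 0.15 (95% interval -0.11 to 0.56, adjusted p = 0.357).

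Read sharing with close copies was small outside these antisense regions. Of the 50-base words in the longest transcript of Cnn1, Cnn2, Myl9, Cald1 and Flna, 0% occurred in a transcript of another gene. For Myh11 the share was 0.4%, with Myh9 and Myh10, and it was 48.3% for Tagln, 13.2% for Smtn and 4.28% for Mylk, all with genes on the other strand.

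The promoters of the genes called in the test, and of Myl9, are shown because smooth muscle genes are known for control by serum response factor, which binds the CArG box, and by TEAD factors, which bind the M-CAT element (searched as CATTCC on both strands). RefSeq promoters (GRCm38.p6, 250 bases before to 50 after a start) were found for 7 of the 9 genes, not for Myh11 and Tagln, and numbered 8, since Cald1 has a pair. A CArG box was in 2 of the 8, those of Cnn2 and Myl9, and in 1.63% of 32851 promoters of that length. An M-CAT match was in 4 of the 8 (Smtn, Mylk, Flna and the upstream promoter of Cald1, not its other one) and in 14.7% of all promoters. Stretches upstream of the RefSeq start read as follows, 5′ to 3′ on the strand of the gene, with the match in capitals.
Cnn2 (chr10:79988499-79988583, plus strand, CArG box): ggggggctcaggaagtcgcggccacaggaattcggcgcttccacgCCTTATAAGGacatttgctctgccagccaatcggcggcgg
Myl9 (chr2:156775258-156775357, plus strand, CArG box): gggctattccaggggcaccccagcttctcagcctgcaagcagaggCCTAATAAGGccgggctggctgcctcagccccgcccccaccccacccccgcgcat
Cald1 (chr6:34598304-34598403, plus strand, M-CAT): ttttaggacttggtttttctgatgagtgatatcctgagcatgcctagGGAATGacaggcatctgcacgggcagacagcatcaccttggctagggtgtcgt
Smtn (chr11:3539462-3539542, minus strand, M-CAT): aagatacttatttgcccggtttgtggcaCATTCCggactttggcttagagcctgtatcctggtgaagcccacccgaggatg
The CArG box began 56 bases before the RefSeq start of Cnn2 and 161 before that of Myl9. These starts differ from the GENCODE gene bounds given above. The windows of Smtn, Mylk, Flna and the other Cald1 promoter lie inside those bounds, so they belong to internal starts. Of the CArG genes Cnn2 fell and Myl9 did not pass, and of the M-CAT genes Smtn fell, Cald1 rose, and Mylk and Flna did not pass. Binding at these matches was not tested. No promoter of the 7 genes held both. A match describes letters only, and no match describes only this window.

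The female knockout library had the lowest level of the 4 cKO libraries for 8 of the 9 genes, all but Cald1, whereas it was the lowest cKO library for 28.3% of all tested genes. For Myh11 the female cKO library was 0.42 lower than the female control on the log2 scale (a difference of -0.42), while the male libraries differed by 0.50. For Cnn1 the female difference was -0.24 and the male difference 1.02. Smtn, by contrast, differed by -1.05 in females and -0.72 in males, and Cald1 by 0.34 and 0.33. The coefficient of variation of Myh11 was 7.65% among controls and 24.6% among cKO libraries, and that of Cnn1 was 20.2% and 50.4%. With 1 female per genotype, sex and this library cannot be told apart. Among the other lists, the same library was the lowest cKO library for 11 of 14 endothelial, 5 of 7 atrial, 10 of 15 pericyte, 5 of 8 epicardial and 7 of 14 cardiomyocyte markers. It was the lowest for 9 of 22 other filament genes, 15 of 43 genes of contraction control, 5 of 16 paralogs, 11 of 41 regulators, 4 of 10 macrophage, 6 of 18 activated fibroblast and 2 of 14 resting fibroblast markers. The part of these cells in the low values was not tested.

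**Figure D2:**
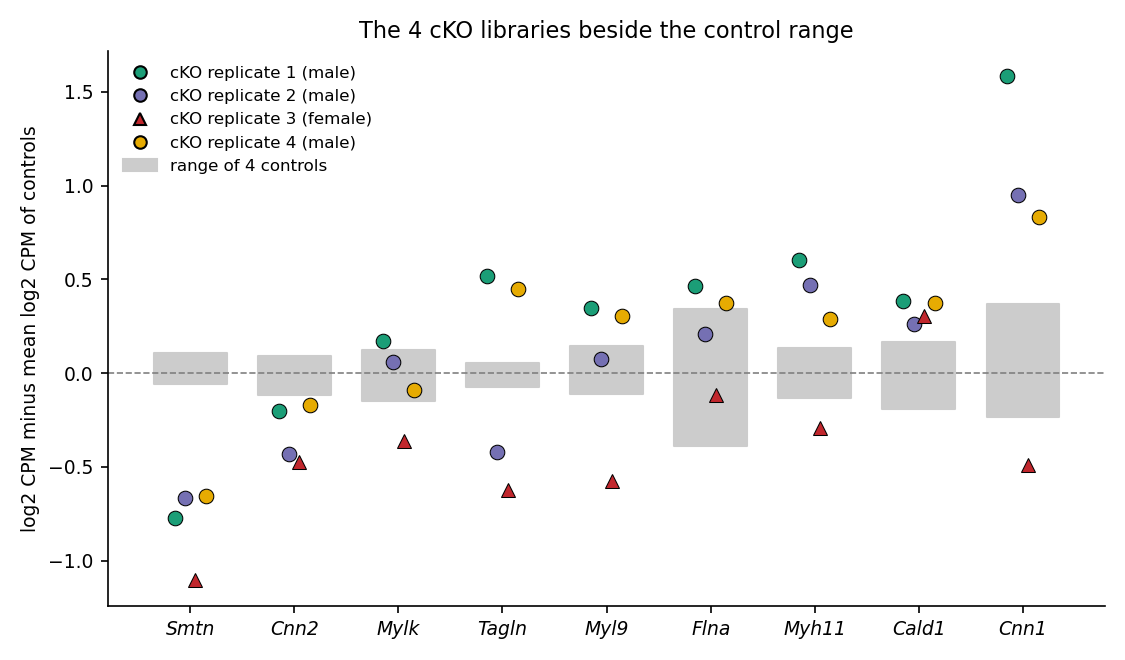
Each point is a cKO library's log2 CPM (no prior count) minus the mean log2 CPM of the 4 controls (vertical axis) for the gene on the horizontal axis, and grey boxes span the controls. The female library (triangle) is the lowest cKO point for every gene but Cald1, and all 4 points lie below the control range for Smtn and Cnn2.

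**Figure D3:**
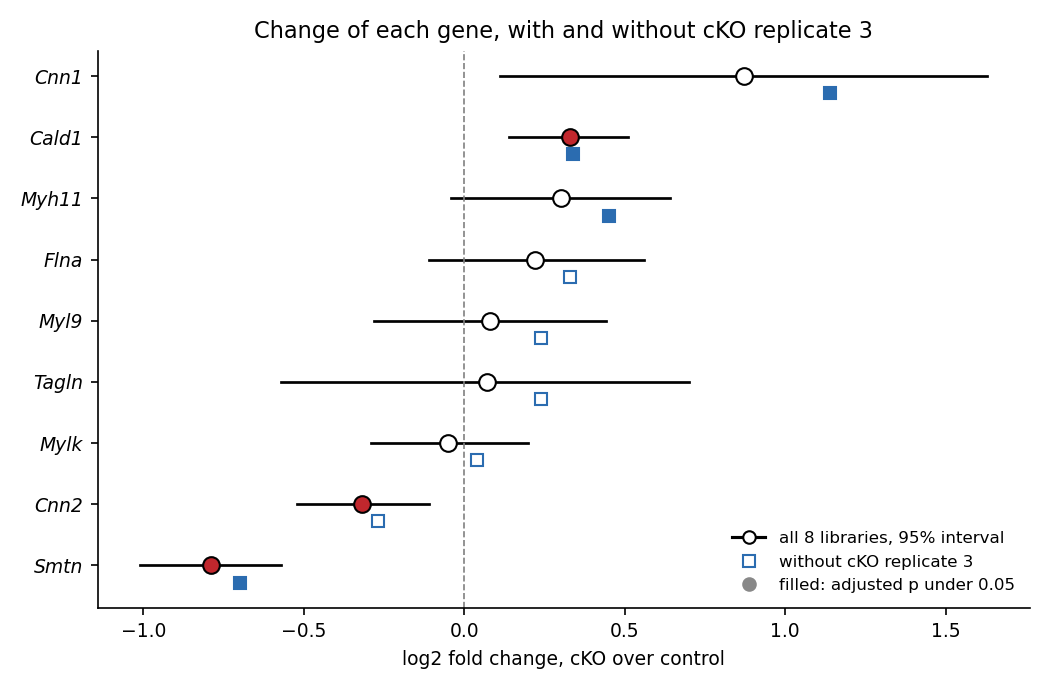
Log2 fold change of cKO over control (horizontal axis) for each gene in all 8 libraries (circles, with 95% intervals) and without cKO replicate 3 (squares); filled symbols passed an adjusted p under 0.05. Of these fits, Cnn1 and Myh11 passed only the one without that library, and Cnn2 only the one with it. That library held the lowest cKO value of these genes, so leaving it out raises their fold changes.

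Levels of different genes were compared as CPM per kilobase of merged exon. In controls the order was Smtn, Flna, Myl9, Cnn2, Myh11, Cald1, Mylk, Cnn1 and Tagln. Smtn (39.4 ± 2.13 CPM per kb, n = 4) and Flna (36.7 ± 7.46) overlapped in range, as did Flna and Myl9 (30.7 ± 2.29). Cnn2 (13.5 ± 0.947) was below these 3 in every control. It was above Myh11 (11.9 ± 0.912), the gene most restricted to smooth muscle, within each control, narrowly in replicates 3 and 4. The ranges of Cnn2 and Myh11 overlapped. Cald1 (9.40 ± 0.976) lay below Myh11 in every control. Mylk (4.50 ± 0.393) was lower again, and Cnn1 (1.03 ± 0.208) and Tagln (0.858 ± 0.0375) closed the order, overlapping with each other. The place of Tagln is uncertain, since most of its exon length is also exon of genes on the other strand. In cKO ventricles Smtn was at rank 3, with 22.7 ± 3.11 CPM per kb, below Flna (42.9 ± 7.23) in every library. Smtn was also below Myl9 (32.4 ± 8.40) within each cKO library, though the ranges of these genes overlapped. With the longest transcript as the length, 7 of the 9 kept their control rank, while Cald1, which has many alternative exons, moved from rank 6 to rank 4 and Cnn2 from rank 4 to rank 6.

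**Figure D4:**
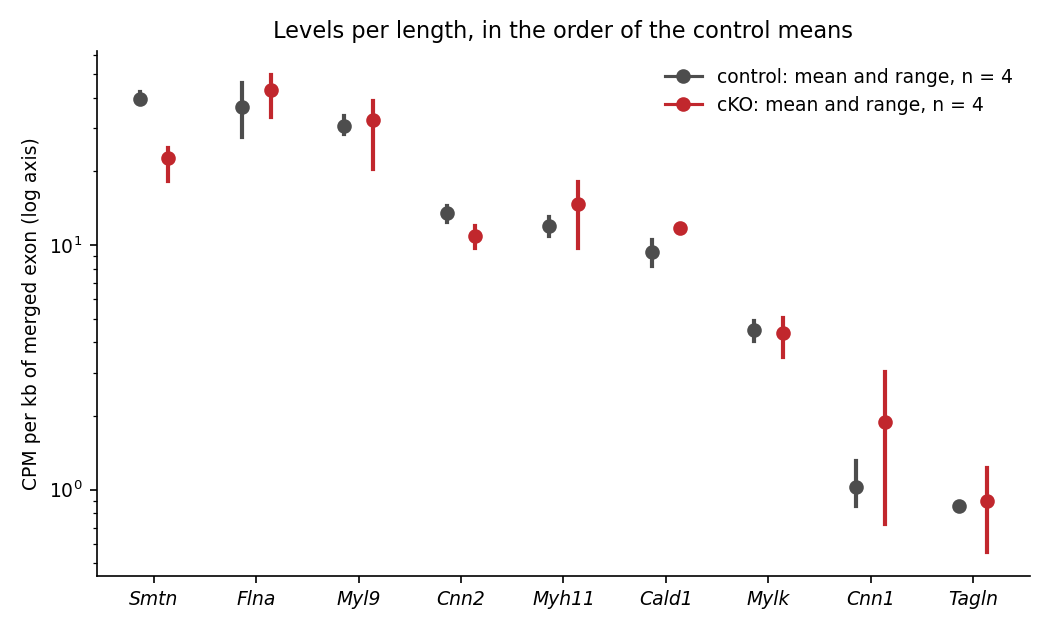
Mean (points) and range (lines) of CPM per kilobase of merged exon (log axis) in 4 control and 4 cKO libraries, with genes in the order of the control means. Smtn held the highest control mean, 39.4, and Tagln the lowest, 0.858, a level that is uncertain because of its antisense overlap.

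Whether the genes moved unequally was tested on ratios within each library, with an exact two-sided permutation test over the 8 libraries for 14 ratios. Smtn over Myh11 was the ratio whose genotypes were separate. Its mean log2 ratio was 0.93 ± 0.16 (SD, n = 4) in controls and -0.14 ± 0.24 in cKO libraries, a difference of -1.07 (exact permutation p = 0.0286, the smallest that 4 against 4 libraries can give; adjusted p = 0.24 over the 14 ratios). The ratio ran from 0.74 to 1.07 in controls and from -0.45 to 0.12 in cKO libraries, and without cKO replicate 3 the difference was -1.15. Cnn2 over Myh11 differed by -0.59 (exact p = 0.0571, adjusted p = 0.24) and Cnn2 over Cnn1 by -1.03 (exact p = 0.0857, adjusted p = 0.24). Cald1 over Myh11 differed by 0.06 (exact p = 0.857) and Flna over Myh11 by -0.04 (exact p = 0.886). No ratio passed after adjustment. A lone ratio at the smallest exact p could not pass over 14 ratios, so this outcome does not show that the genes moved alike.

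Paralogs of the 9 genes, counted here with other myosin light chain genes, are given beside them. Of 16 tested, 5 rose and 2 fell, against 9.64% higher and 9.64% lower over all tested genes. Mylk4, a striated muscle relative of Mylk, fell 2.51-fold, from 585.1 to 732 CPM across controls to 163.8 to 365 CPM across cKO libraries (adjusted p = 0.000657). Mylk3, the cardiac light chain kinase, did not pass (log2 fold change 0.26, adjusted p = 0.0882). Smtnl2, a smoothelin-like gene, fell as Smtn did, with a log2 fold change of -0.67 ± 0.13 (adjusted p = 0.00383). Myl12a, a non-muscle regulatory light chain, rose 1.57-fold, and the non-muscle myosin Myh10 rose 1.61-fold. Cnn3, another calponin, rose with a log2 fold change of 0.34 (adjusted p = 0.0181), where Cnn2 fell. Myh14 (log2 fold change 0.60, adjusted p = 0.0133) and Flnc (0.39, adjusted p = 0.0499) also rose, both with overlapping ranges. The rises were 3 without cKO replicate 4 and 2 in males alone, and 3 to 5 when each library was left out in turn.

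Other filament and dense-plaque genes of smooth muscle gave 5 rises and 1 fall among 22 tested, beside 9.64% in each direction over all genes. Lmod1, a smooth muscle leiomodin that nucleates actin, rose from 5.48 to 6.69 CPM across controls to 6.37 to 10.8 CPM across cKO libraries (log2 fold change 0.54, adjusted p = 0.0441), with the female library again the lowest cKO value. Tpm2, beta-tropomyosin, rose 2.59-fold, Itga8, an integrin of smooth muscle and fibroblasts, rose 1.99-fold, and Synm and Actn1 also rose. Palld fell 1.45-fold. Acta2, smooth muscle actin, did not pass (log2 fold change -0.50, adjusted p = 0.215), and its cKO range of 58.0 to 134.5 CPM overlapped the control range of 94.3 to 190.4. With total counts only, 9 of these genes rose, and 3 rose without control replicate 2, cKO replicate 1 or cKO replicate 4.

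Regulators of smooth muscle transcription and splicing gave 6 rises and 5 falls among 41 tested, with Rbpms and its paralog Rbpms2 among the falls. Over all tested genes 9.64% rose and 9.64% fell. Myocd, the myocardin coactivator of serum response factor, which is active in smooth and cardiac muscle, fell 1.54-fold from 132.4 to 144.6 CPM across controls to 80.0 to 101 CPM across cKO libraries (adjusted p = 0.000474). Gata6 fell 1.54-fold and Fhl2, a LIM-domain cofactor, fell 2.54-fold, while the ligand gene Tgfb2 rose 2.92-fold. Srf did not pass (log2 fold change -0.09, adjusted p = 0.444), nor did the myocardin-related genes Mkl1 (0.00) and Mkl2 (0.09). With total counts only, 9 regulators rose.

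Receptors, channels and enzymes that set smooth muscle tone gave 8 falls and 1 rise among 43 tested, and several of the genes that fell are also expressed in heart muscle. Over all tested genes 19.3% were called, 9.64% in each direction. The alpha-1 adrenergic receptor gene Adra1a fell 2.67-fold, Gna12, a G protein subunit, fell 1.41-fold, and Rgs2 fell 1.45-fold. Agtr1a, the angiotensin receptor gene, fell 1.28-fold. Arhgef25, a guanine nucleotide exchange factor, rose 1.38-fold. Ppp1r14a, which inhibits myosin phosphatase, and Kcnmb1, a potassium channel subunit, are largely smooth muscle genes, and neither passed (log2 fold changes 0.08 and 0.23). With total counts only, 5 of the list rose and 7 fell. The rises were 4 without control replicate 3, 3 without cKO replicate 4, 3 in males alone, 3 with DESeq2, and 2 with limma-voom, with sex as a covariate or with no filter.

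Markers of other cells in the ventricle are given beside these genes, where 9.64% of all tested genes rose and 9.64% fell. Of 15 pericyte markers 1 rose and 3 fell, with a median log2 fold change of -0.00. Their summed level was 2446 to 2779 CPM in controls and 1912 to 2169 CPM in cKO libraries. A sum gives most weight to abundant genes, and which genes lowered it was not tested. Abcc9, which heart muscle also expresses, fell 2.04-fold, Kcnj8 and Vtn fell by 0.35 and 0.49 on the log2 scale and Cspg4 rose by 0.56, while Pdgfrb and Rgs5 had log2 fold changes of 0.00 and 0.01. The falls dropped to 1 with total counts only, and also when cKO replicate 1, cKO replicate 3, control replicate 1 or control replicate 2 was left out. Of 18 activated fibroblast markers 13 rose and 0 fell (834 to 1880 CPM summed in controls, 2928 to 4338 in cKO), and of 14 resting fibroblast markers 12 rose and 0 fell (2861 to 3472 and 4800 to 5085 CPM). The smallest adjusted p were those of Cilp, Col8a1, Postn and Ltbp2 (log2 fold changes 2.91, 1.84, 2.05 and 2.47) and of Mfap4, Islr, Dpt and Pdgfra (2.03, 1.02, 0.86 and 0.83). Fibroblasts also express Cald1, Flna, Myl9 and Cnn2, and their part in the values of these genes was not tested. Cardiomyocyte markers (3 of 14 fell, Ckm, Ryr2 and Tnni3) summed to 55045 to 71830 CPM in controls and 48420 to 57212 in cKO. In 14 endothelial, 8 epicardial and 10 macrophage markers 1 (Vwf), 1 (Krt8) and 2 (Lyz2 and Mrc1) rose and 0 fell, and of 7 tested atrial markers 2 rose (Nppa and Dkk3). No listed marker was at 0 in all libraries.

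Genes whose profile over the 8 libraries was most like that of Myh11 and of Smtn were found by the root mean square difference in log2 CPM, each gene centred on its own mean, among 14033 other genes whose mean was 1 CPM or more. The measure includes the difference between genotypes. For Myh11 the 4 closest were Mmp17, Pigf, Lama3 and Tmem255a (0.105 to 0.138), and Lmod1 came at rank 6. Among the 9 genes the closest to Myh11 was Myl9 at rank 71, and Smtn was at rank 12521. For Smtn the 5 closest were Me3, Foxred1, Decr1, Nudt7 and Prkab1 (0.047 to 0.087), all of which fell, with log2 fold changes from -0.86 to -0.72. Me3 and Decr1 encode mitochondrial enzymes and Prkab1 a subunit of AMP-activated kinase. Cnn2 was the member closest to Smtn, at rank 838.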

How the data were processed

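Whole-number counts per gene symbol were deposited by the authors, 1 column per library, from a stranded mRNA kit per the labels. Per the submitters' processing notes the tools included HISAT2 2.0.4 and featureCounts 1.6.0, with FastQC 0.11.4 and edgeR 3.30.3, on GRCm38 (mm10). How strand was set in counting, and which annotation was used, is not given in the sources used here. Of 54132 rows, 24 hold a number instead of a symbol and were left out (0.115 to 0.132% of counts). The test was edgeR 4.0.16 (R 4.3.3) quasi-likelihood with genotype only, TMM, filterByExpr and Benjamini-Hochberg adjustment over 16051 genes. On simulated counts it recovered 34 of 67 genes changed 1.5-fold, 56 of 67 changed 2-fold and 63 of 66 changed 4-fold, with 4 false calls. A gene that did not pass may therefore still differ by 1.5-fold. The simulation gave each gene the spread typical of its abundance and changed far fewer genes than were called in the data. Recovery of genes as variable as Cnn1 may thus be lower. A CPM of 1 is 19.1 to 25.3 reads. Members, 12 other gene lists and the ratios were chosen with earlier results of these data known, so no set test was run. Named genes were all members, up to 4 called genes per list with the smallest adjusted p and the 5 closest profiles, of which 1 is not reported here; others were named after their values were seen. Replicates differed beyond sampling noise (chi-square per degree of freedom 7.89 to 33.7). Positions, lengths and overlaps are from GENCODE M21. Ratios used log2 CPM with a prior count of 2. Alternatives were scaling, filters, DESeq2 1.42.0, limma-voom 3.58.1, robust dispersions, sex as covariate, males only, no mitochondrial genes, adjusted p under 0.01 and each library left out.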

Additional observations from a re-analysis of the deposited data

Results flagged for a closer look

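Myh11 and Cnn1 drew attention because every male cKO library went one way and the female pair the other. The 3 male cKO libraries were above all 3 male controls for both genes, while the female cKO library was below the female control, by a log2 difference of -0.42 for Myh11 and -0.24 for Cnn1. Mean differences also had opposite signs in females and males for Tagln (-0.63 and 0.19), Myl9 (-0.46 and 0.20) and Mylk (-0.30 and 0.02), where the male libraries overlapped. The difference between the sexes was not tested, and each genotype has 1 female library. Dixon's test on the 4 values of each gene in each genotype (18 groups) flagged no library. With 4 values it finds only extreme outliers, and it does not test a library over several genes.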

How the results depend on the processing

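Smtn, Rbpms and Rbpms2 kept their direction and stayed past the threshold in all 20 alternatives. With all 8 libraries 1 of the 9 genes rose and 2 fell. The number that rose was 2 with no filter on low counts, with DESeq2 and in males only, 0 at an adjusted p under 0.01, and 0 to 3 when each library was left out in turn. The number that fell was 1 with upper-quartile factors, with total counts only, in males only and at an adjusted p under 0.01, and 1 to 2 when each library was left out. Over all genes, 1021 were lower with total counts only (1547 in the main test), and at an adjusted p under 0.01 808 were higher and 817 lower. Of 14 ratios 1 had separate genotypes, 2 with a prior count of 0.5, 4 in males only and 1 to 4 when each library was left out. Total counts only moved the median log2 fold change of all genes from 0.01 to 0.09. The causes of these changes were not tested. No paired analysis was possible because the libraries carry unique numbers that pair nothing across genotypes. Tagln (28 to 59 reads per library) and Cnn1 (50 to 201) had the fewest reads of the 9 genes, so counting error is largest for them.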
